A study of Mus musculus with 2239 samples.

Results

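The genes described here build the ribosome: 36 protein-coding genes whose products make, modify, cut and fold ribosomal RNA in the nucleolus, together with a few growth genes usually found beside them. They were named as a list, by function, and all 36 were present among the 23725 gene rows of a single-cell count table of sorted mouse regulatory T cells (Tregs). The table held 2239 cells of 1 library, and the 2055 cells with at least 500 unique molecular identifiers (UMIs, each standing for 1 captured transcript) were kept. All 36 genes had at least 20 UMIs in the kept cells, and together they had 9046 of 2156277 UMIs, or 0.420%.

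The cells came from Foxp3 reporter mice of the B6 strain, all male and 7 months old. They were sorted as live (DAPI-), TCRb+, CD4+ and GFP+, where GFP reports Foxp3, the transcription factor that defines Tregs. The tissue label is spleen. A second label names colon beside it, so cells from both tissues may be in the library. That label also carries the tags ctrl and rep2a, which mark the library as a control and number it as a replicate. No label says what it is a control for or gives a treatment or the number of mice, and other libraries of the series were not analysed here. The cells were captured by inDrops, a droplet method that primes on the poly(A) tail and counts UMIs.

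Ribosomal RNA is transcribed in the nucleolus by RNA polymerase I as a single long precursor. Small nucleolar ribonucleoproteins (snoRNPs) of the box C/D kind guide its 2'-O-methylation and those of the box H/ACA kind guide its pseudouridylation, while large assemblies of processing factors cut the precursor and load ribosomal proteins to form the small (40S) and large (60S) subunits. The subunits then leave the nucleus through export that depends on the GTPase Ran. In T cells, ribosome biogenesis is known to rise after antigen receptor stimulation, and the transcription factor Myc, which binds the E-box CACGTG, is a well-known activator of these genes.

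The promoters of the genes are shown because the genes are generally described as being switched on together. RefSeq promoter windows (build GRCm38.p6) were held for 31 of the 36 genes, all but Npm1, Fbl, Srm, Rrs1 and Bop1, and 6 motifs were searched on both strands in the 250 bases before each start. The E-box CACGTG was in the windows of 2 of 31 genes, Ran and Nop2, or 6.45%, against 6.86% of all 27025 genes with a window. The first pair of stretches below are 100 bases from those 2 genes, chr5:129019991-129020090 on the plus strand and chr6:125131783-125131882 on the plus strand, with the E-box in capitals.
Ran: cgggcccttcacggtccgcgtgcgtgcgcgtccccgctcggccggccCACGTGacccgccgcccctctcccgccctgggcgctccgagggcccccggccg
Nop2: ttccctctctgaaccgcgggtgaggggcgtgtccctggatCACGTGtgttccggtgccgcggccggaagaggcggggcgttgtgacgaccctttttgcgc

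CGGAAG, the core bound by ETS factors, was in the windows of 12 of 31 genes, or 38.7%, against 15.3% of all genes. All genes with a window, for this and the other motifs, include genes not detected in these cells. The share over detected genes alone was not taken, so the difference is not shown to be particular to the list. It occurred in Ddx21, Gar1, Mybbp1a, Nhp2, Nip7, Nolc1, Nop2, Ranbp1, Rrp9, Tsr1, Utp20 and Wdr12. Gar1 (chr3:129831397-129831496, minus strand) held it in 2 places, 1 on each strand, which reads as CTTCCG. Ranbp1 (chr16:18248839-18248938, minus strand) and Nhp2 (chr11:51619673-51619772, plus strand) held 1 copy each, and capitals mark it in all of them.
Gar1: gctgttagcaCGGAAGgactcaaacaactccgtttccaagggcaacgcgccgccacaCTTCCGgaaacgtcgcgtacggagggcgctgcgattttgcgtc
Ranbp1: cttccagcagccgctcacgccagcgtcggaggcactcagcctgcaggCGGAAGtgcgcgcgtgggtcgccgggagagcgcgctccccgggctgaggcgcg
Nhp2: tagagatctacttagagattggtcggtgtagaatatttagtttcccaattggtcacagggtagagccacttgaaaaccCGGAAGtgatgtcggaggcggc

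The letters ACTACA and TCCC with any 2 bases between them, known from sites of the factor ZNF143, were added to the search after the sequences had been read. They were in the windows of 4 of 31 genes, Nop10, Nop16, Pa2g4 and Polr1b, or 12.9%, against 1.92% of all genes. Since the letters were chosen from these same sequences, these shares cannot show an excess. Nop16 (chr13:54590075-54590174, minus strand) held them on both strands, shown in capitals, and Nop10 (chr2:112261826-112261925, plus strand) and Polr1b (chr2:129100896-129100995, plus strand) held 1 copy each. The annotated gene begins at base 129100970 for Polr1b and at base 54590097 for Nop16. The marked letters of Polr1b and the later copy in Nop16 therefore lie inside the annotated gene, though before the start that the window used. The other motifs were GCGCA followed directly by TGCGC, in Ran alone (3.23% against 0.877%), TATAAA (9.68% against 14.3%) and CCAAT (25.8% against 37.5%). None of the motifs contains another, and a match describes the letters of the window and no binding.
Nop16: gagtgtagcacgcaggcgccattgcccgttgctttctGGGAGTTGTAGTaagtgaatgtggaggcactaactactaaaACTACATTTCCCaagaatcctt
Nop10: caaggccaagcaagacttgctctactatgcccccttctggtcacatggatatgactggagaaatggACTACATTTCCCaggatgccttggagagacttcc
Polr1b: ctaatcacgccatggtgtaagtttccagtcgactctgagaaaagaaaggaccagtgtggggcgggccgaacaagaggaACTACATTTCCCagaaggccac

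Transcripts of the nucleolar chaperones were the most abundant of the list. Levels are given as counts scaled to a common total (CPM), the gene's UMIs per 1000000 UMIs of the kept cells, with exact Poisson 95% intervals that cover counting error only. UMIs count transcripts once each, so no correction for gene length was made. Npm1, the histone chaperone nucleophosmin, stood at 992 CPM (951 to 1035). Ncl, or nucleolin, which binds nascent ribosomal RNA, stood at 511 CPM (481 to 542), and Ran at 391 CPM (365 to 418). These 3 genes held 45.2% of the list's UMIs, and their intervals did not overlap each other or that of the next gene. From the fourth gene down, each neighbouring pair in the order had overlapping intervals, which does not by itself show equal levels. Genes further apart could have separate intervals, such as Npm3 (166 to 203 CPM) and Nop56 (104 to 134 CPM).

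The next 7 genes lay between 119 and 184 CPM. They were the chaperone Npm3 at 184 CPM, the H/ACA protein Nop10 at 150 CPM, the growth regulator Pa2g4 at 145 CPM, the C/D methyltransferase fibrillarin (Fbl) at 137 CPM, the mitochondrial protein C1qbp at 129 CPM, the RNA helicase Ddx21 at 122 CPM and the large subunit factor Noc2l at 119 CPM. A pseudogene row of Npm3, Npm3-ps1, carried a further 173 UMIs, so how reads were divided between the 2 rows is uncertain. At the foot of the order were Utp20, a small subunit processing factor, at 14.4 CPM (9.77 to 20.4), and Polr1b, a core subunit of RNA polymerase I, at 9.74 CPM (6.03 to 14.9). The least abundant gene was therefore represented by 21 UMIs in all the kept cells.

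Summed by role, the 4 nucleolar chaperones and scaffolds (Npm1, Ncl, Npm3, Nolc1) reached 1758 CPM, or 41.9% of the list. The 14 large subunit factors reached 708 CPM, the Ran cycle pair (Ran, Ranbp1) 472 CPM, the 4 H/ACA genes (Dkc1, Nop10, Nhp2, Gar1) 377 CPM and the 4 C/D genes (Fbl, Nop56, Nop58, Rrp9) 375 CPM. The 3 other growth genes, Srm, Pa2g4 and C1qbp, reached 336 CPM. The 3 small subunit factors (Wdr43, Utp20, Tsr1) reached 109 CPM and the RNA polymerase I pair (Polr1b, Mybbp1a) 60.8 CPM. The C/D and H/ACA families were thus at levels whose intervals overlap (349 to 401 and 351 to 403 CPM).

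**Figure D1:**
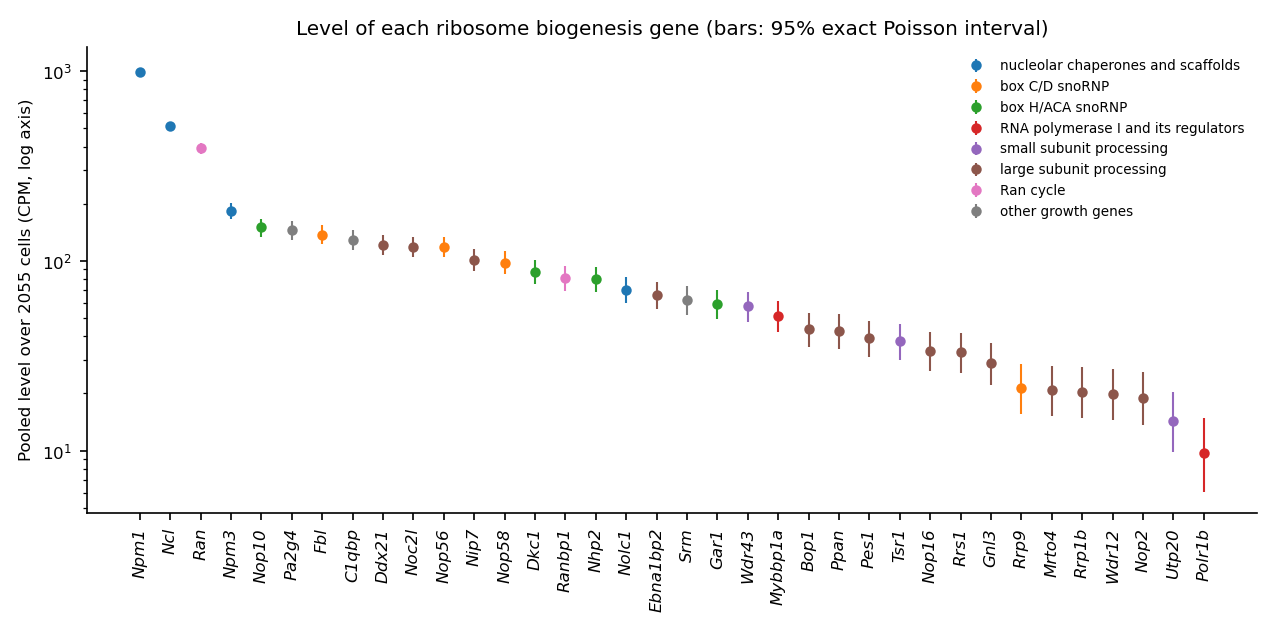
Level of each of the 36 genes over the 2055 kept cells in CPM on a log axis, ordered from the most to the least abundant and coloured by role, with exact Poisson 95% intervals as bars. Npm1, Ncl and Ran stand apart at 992, 511 and 391 CPM, and the other genes fall in small steps with overlapping intervals down to Polr1b at 9.74 CPM.

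The transcripts were spread unevenly over cells. A kept cell had a median of 974 UMIs (range 500 to 4329) and a median of 3 UMIs of the list, from a median of 3 of its genes. No UMI of the list was seen in 121 cells. The 103 cells with most of them, the top 5%, held 22.5% of the list's UMIs. The cell with most had 85 UMIs of the list from 28 of its genes among 3085 UMIs, and the next had 81 from 27 genes among 3767. The first had a Tnfrsf9 UMI and the second a Nr4a1 or Egr1 UMI, and both are among the 11 cells with most UMIs in the library.

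Deep cells also held a larger share of these transcripts. The summed level was 3629 CPM (3403 to 3867) in cells of 500 to under 750 UMIs, 3559 CPM (3412 to 3711) from there to under 1000, 4130 CPM (3996 to 4268) from there to under 1500, and 5657 CPM (5429 to 5893) at 1500 or more. Ribosomal protein genes took 35.97% of all UMIs. With the cells ordered by that share and cut into groups of 685, the list's level was 4562 CPM in the group with the least and 3937 CPM in the group with the most. With ribosomal protein UMIs left out of the total the order ran the other way, from 6297 to 6917 CPM, so the direction depends on the total used. Where a class is set against the rest below, the summed level is given on both totals and with the rest weighted to the depth of the class. Comparisons of cells of a single class were not weighted for depth.

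Some cells of the sort carried markers of other lineages. At least 2 UMIs of B cell, myeloid or CD8 T and NK cell markers were seen in 290 cells, of which 103 had B cell markers, 205 myeloid markers and 25 CD8 T or NK markers. Foxp3 was at 60.9 CPM in the B-marker cells, 306 CPM in the myeloid-marker cells and 395 CPM in the other 1765 cells. Of the myeloid markers, Ctss was seen in 472 kept cells and Cst3 in 245, but Lyz2 in 17 and S100a8 in 15. A cell flagged in this way need not belong to another lineage, and some may be Tregs. Values given below without such cells are therefore not those of a purified sort. The ribosome biogenesis genes were at 3999 CPM in the 290 cells and 4233 CPM elsewhere. That pooled value covers unlike cells. Relative to cells without the gene, their summed level was 0.473 (0.347 to 0.629) in cells with Lyz2 and 0.317 (0.188 to 0.501) in cells with S100a8. It was 0.890 in cells with Ctss and 0.916 in cells with Cst3. Every cell type makes ribosomes, so no group of cells in the library gives a background level of free RNA for these genes.

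The cells were divided in 4 ways by transcripts that mark a state: cycling cells (Mki67 or Top2a, genes of dividing cells), cells with Tnfrsf9 (4-1BB, a costimulatory receptor of activated Tregs), cells with Nr4a1 or Egr1 (immediate early genes of antigen receptor signalling), and cells with 2 or more UMIs of S100a4 and S100a6 (calcium-binding proteins of effector and migratory cells, also abundant in myeloid cells). Each class was set against all other kept cells. The classes overlap, and 1674 cells were in none. With 1 library there is no replicate and no test: a ratio of pooled levels is given with an exact 95% interval of the counts, and a gene is called higher or lower at 1.5-fold. A gene counts as measured with at least 20 UMIs overall and at least 5 expected in the class.

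Cells with Tnfrsf9 carried the largest relative share of these transcripts among the 3 classes of over 100 cells. The 164 cells held 1272 of the list's UMIs, or 5991 CPM (5667 to 6330), and the other 1891 cells 3999 CPM (3911 to 4089), a ratio of 1.5 (1.41 to 1.59). Of 29 measured genes, 16 were higher and 0 lower, where 13.4% of all 5230 measured genes were higher and 13.1% lower. The median log2 ratio was 0.66 for the list and 0.04 for all genes. Both the count and the median of the list lay above the same values over all genes. Median depth was 1092 UMIs in the class and 964 in the rest, and weighted to the depth of the class the ratio was 1.36. On that weighting 12 genes were higher, and no share over all genes was taken to set beside that count. With ribosomal protein UMIs left out the ratio was 1.44 (1.35 to 1.52) with 15 higher, against 10.9% of all genes.

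The 16 higher genes came from every role except small subunit processing, where Wdr43 was at 1.07 and Tsr1 at 1.0. Both Ran cycle genes were among them, with Ran at 659 against 362 CPM (ratio 1.82, 1.51 to 2.19) and Ranbp1, which promotes GTP hydrolysis by Ran, at 155 against 73.0 CPM (2.13, 1.41 to 3.13). So were 2 of the 3 measured C/D genes: Nop58, a core protein of the particle, had the largest ratio of the measured genes at 203 against 86.4 CPM (2.34, 1.64 to 3.29), and its partner Nop56 was at 193 against 110 CPM (1.75, 1.22 to 2.46). The methyltransferase Fbl, at 160 against 135 CPM, was not called (1.19, 0.806 to 1.70). The H/ACA genes Dkc1, the pseudouridine synthase, Nhp2 and Gar1 were higher at 1.66, 1.71 and 1.60, and Nop10 was at 1.29. All of the other growth genes were higher. Srm, which makes the polyamine spermidine, was at 2.0 (1.23 to 3.13), Pa2g4 at 1.79 and C1qbp at 1.58.

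Large subunit factors were mixed, with 4 of 10 measured genes higher. The 4 were Nop16 at 2.21 (1.14 to 4.01), Gnl3, the GTPase nucleostemin, at 2.20 (1.07 to 4.19), Ddx21 at 1.60 and Nip7 at 1.51. The lowest ratios of the measured genes were those of Rrs1 at 0.845 (0.299 to 1.94) and Bop1 at 0.970 (0.429 to 1.93), both large subunit factors, and of Tsr1, a small subunit factor, whose interval was 0.418 to 2.08. Mybbp1a, a regulator of RNA polymerase I, was at 1.79 (1.02 to 2.99). The abundant chaperones moved less than the threshold: Npm1 was at 1.31 (1.14 to 1.48), Ncl at 1.42 (1.19 to 1.69) and Npm3 at 1.03, while Nolc1 was higher at 1.63. The remaining 7 genes (Rrp9, Polr1b, Utp20, Wdr12, Nop2, Rrp1b and Mrto4) were too sparse to be measured in any class. In Tnfrsf9 cells their ratios ran from 1.48 (0.512 to 3.55) for Wdr12 to 3.66 (1.16 to 9.99) for Polr1b and 3.75 (1.52 to 8.46) for Utp20, on 6, 6 and 9 UMIs in the class.

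**Figure D2:**
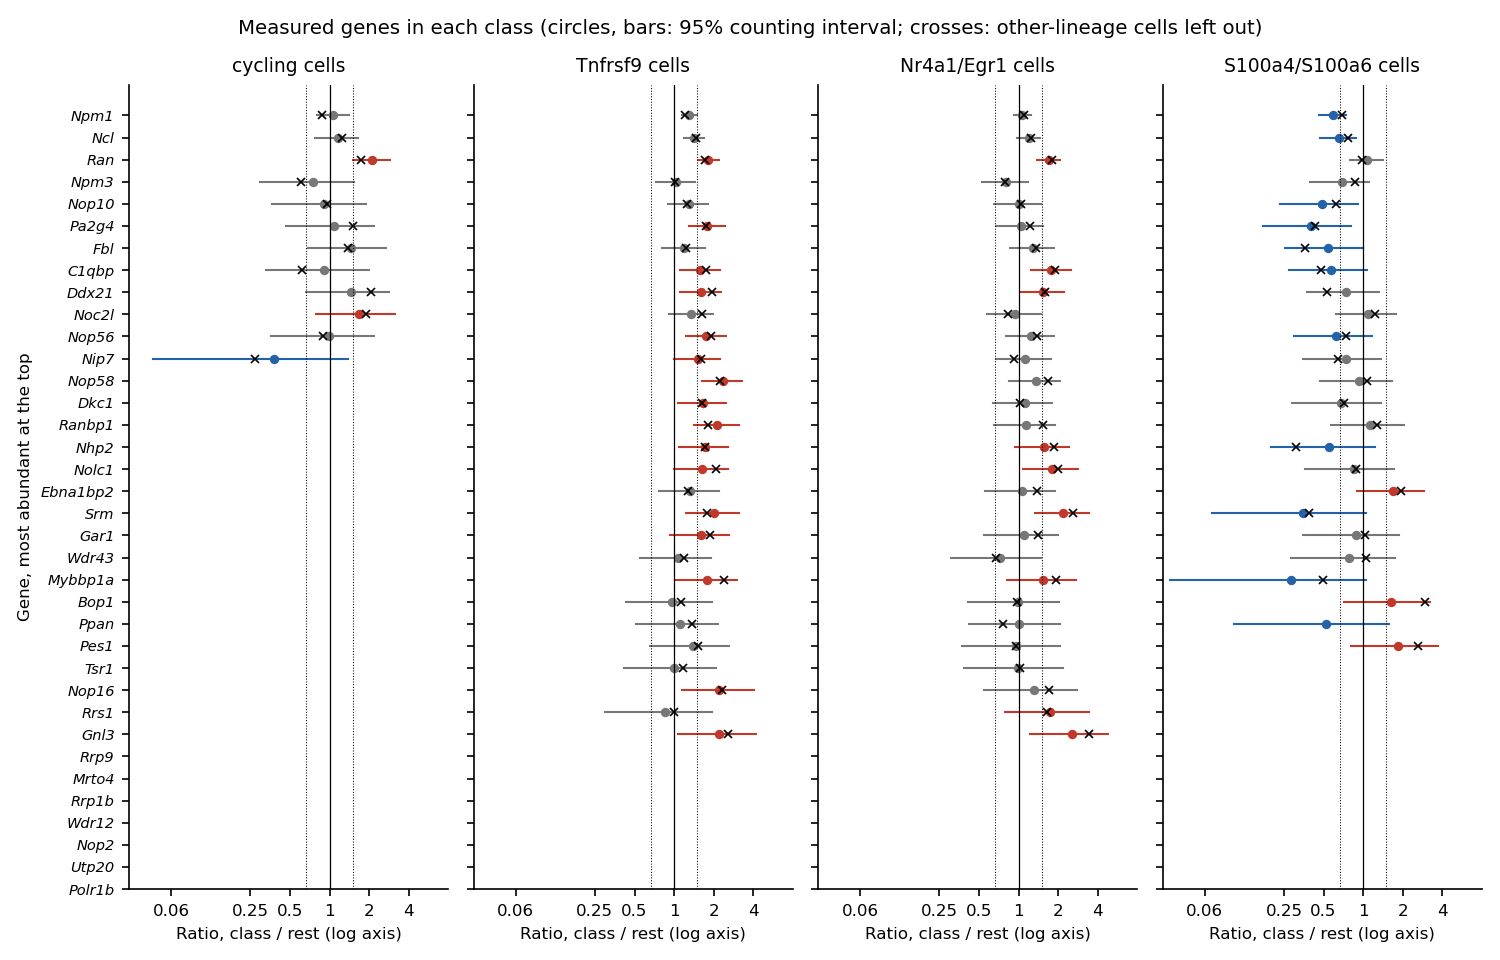
Ratio of class to rest on a log axis for each measured gene in the 4 classes, with the most abundant gene at the top. Circles with bars are the ratio and its exact 95% counting interval, red where at least 1.5-fold higher, blue where at least 1.5-fold lower and grey otherwise, dotted lines mark the threshold, and crosses give the ratio without the cells with other-lineage markers (no cross where the class then has 0 UMIs). The Tnfrsf9 panel has 16 red and 0 blue genes of 29, and the S100a4/S100a6 panel 3 red and 11 blue of 25.

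The rest of the pathway was read from lists of genes outside the 36. The counts below stand beside 13.4% of all measured genes higher and 13.1% lower in Tnfrsf9 cells. With ribosomal protein UMIs left out of the total these shares were 10.9% and 15.2%. In Tnfrsf9 cells 11 of 31 measured small subunit genes were higher and 0 lower, with Rcl1 highest at 2.76 (1.47 to 4.91) and Utp11l lowest at 0.670. Of the other large subunit genes 12 of 37 were higher and 3 lower, but only 6 were higher and 4 lower once ribosomal protein UMIs were left out of the total, when 10 small subunit genes were higher and 1 lower. Of 14 genes of snoRNP assembly and the exosome 3 were higher and 2 lower, and of 16 nuclear transport genes 4 were higher and 2 lower. Of 12 further genes of the RNA polymerase I machinery 0 were higher and 1, Taf1b, was lower (0.602, 0.190 to 1.47). Of 23 genes for polyamines, nucleotides and chaperones 9 were higher and 0 lower, led by Odc1, the first enzyme of polyamine synthesis, at 2.23 (1.51 to 3.21), the mitochondrial chaperone Hspd1 at 2.18 and the guanine nucleotide enzyme Impdh2 at 1.96; on the total without ribosomal protein UMIs 6 were higher. Of 7 measured genes of the Myc network 0 were higher and 0 lower, and Myc was at 1.32 (0.825 to 2.04).

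Genes of cell division moved in the same cells: 9 of 14 were higher, with Stmn1 at 5.92-fold, and 7 of the 164 cells were also cycling cells. Genes known to respond to stress after dissociation summed to a ratio of 1.43 (1.30 to 1.56), with Hsp90aa1 at 2.21 and Hsph1 at 2.08, both chaperone genes, higher, Ddit3 lower and Hspa1a and Atf3 at 0 UMIs among 8 genes, of which 5 were measured. Without other-lineage cells that sum was at 1.35. The part of either list in the result was not tested. Markers of other lineages were lower: B cell markers summed to 84.8 against 1589 CPM and myeloid markers to 457 against 1049 CPM, with 10 of 10 measured B cell markers and 6 of 9 myeloid markers lower, and Cd79a, Ms4a1 and Lyz2 at 0 UMIs in the class. Without the cells with other-lineage markers the ratio of the ribosome biogenesis genes was 1.52 (1.42 to 1.62) over 138 cells, and 17 of 28 measured genes were higher, against 14.3% of all genes. The Treg marker Ikzf2 was higher at 1.57 and Foxp3 was at 1.09 (0.858 to 1.36). The difference was not even over depth: it was 0.975 (0.800 to 1.18) among cells of 750 to under 1000 UMIs and 1.40, 1.45 and 1.40 in the other bins, from the shallowest up.

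Cells with Nr4a1 or Egr1 showed a smaller difference, which changed with the depth of the cells compared. The 152 cells were at 5068 CPM (4750 to 5401) and the rest at 4112 CPM (4023 to 4203), a ratio of 1.23 (1.15 to 1.32). Of 29 measured genes 9 were higher and 0 lower, where 11.5% of all 4850 measured genes were higher and 12.3% lower, and the median log2 ratio was 0.18 against 0.03 for all genes. The ratio was 1.17 (1.09 to 1.252) with ribosomal protein UMIs left out, and weighted to the depth of the class it was 1.14. The 5 cells with most of these transcripts held 28.6% of the class total. Without the 2% of cells with most UMIs the summed difference was 0.056 on the log2 scale with 2 genes higher. With every cell thinned to 500 UMIs before the class was drawn, which left 97 cells in it, the difference was -0.043 with 1 higher. No share over all genes was taken for these counts. By depth the ratio was 1.60 (1.251 to 2.02) in cells of 500 to under 750 UMIs, 0.758 (0.607 to 0.937) from there to under 1000, 1.02 from there to under 1500 and 1.30 (1.17 to 1.44) above, so it changed direction between bins.

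Among the 9 higher genes, Gnl3 had the largest ratio at 2.53 (1.23 to 4.82), on 12 UMIs in the class, followed by Srm at 2.18 (1.33 to 3.44), Nolc1 at 1.78 (1.08 to 2.82), C1qbp at 1.77 (1.23 to 2.48) and Rrs1 at 1.73 (0.789 to 3.40). Ran was at 626 against 369 CPM (1.70, 1.39 to 2.07), and Nhp2, Mybbp1a and Ddx21 were at 1.55, 1.54 and 1.52. The C/D genes were not called, with Fbl at 1.28, Nop56 at 1.248 and Nop58 at 1.35. The lowest ratios of measured genes were those of Wdr43, a small subunit factor, at 0.727 (0.307 to 1.48), Npm3 at 0.802 (0.526 to 1.18) and Noc2l at 0.942 (0.572 to 1.47). Npm1 stood at 1.07 and Ncl at 1.19.

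Outside the list, 1 of 27 measured small subunit genes was higher and 2 lower, 5 of 32 large subunit genes were higher and 2 lower, and 4 of 23 polyamine, nucleotide and chaperone genes were higher and 1 lower, with Ppat at 1.85, Odc1 at 1.61 and Cad lowest at 0.514. Of all measured genes 11.5% were higher and 12.3% lower, or 8.76% and 14.3% with ribosomal protein UMIs left out of the total. In the Myc network 2 of 7 genes were higher, Myc at 1.52 (0.949 to 2.35) and Mxi1 at 1.92 (0.871 to 3.80). Once ribosomal protein UMIs were left out, 1 small subunit, 4 large subunit and 2 polyamine, nucleotide and chaperone genes were higher, and 4, 2 and 1 lower, and of the Myc network Mxi1 alone was higher. Genes known to respond to stress after dissociation summed to a ratio of 1.18 (1.07 to 1.31), with Hsp90aa1 and Dnajb1 higher among 4 measured, and their part in the result was not tested. Without the cells with other-lineage markers Myc was at 1.48 and Mxi1 at 1.0, and 0 of 5 measured genes were higher. As a check of the label, 8 of 10 measured immediate early genes were higher, among them Junb at 2.30. Myeloid markers summed to 2895 against 810 CPM, with 8 of 9 measured markers higher and Lyz2 81.2-fold higher, and 31 of the 152 cells (20.4%) had other-lineage markers. Without such cells the ratio of the ribosome biogenesis genes was 1.32 (1.22 to 1.42), with 10 of 27 higher, against 13.4% of all genes. With ribosomal protein UMIs left out of the total, 6 of 29 genes were higher over all cells, against 8.76% of all genes, and 9 of 27 without the other-lineage cells, against 10.4%.

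Cells with S100a4 and S100a6 had less of these transcripts. The 103 cells were at 3048 CPM (2757 to 3361) and the rest at 4270 CPM (4180 to 4361), a ratio of 0.714 (0.644 to 0.789). Of 25 measured genes 3 were higher and 11 lower, where 21.0% of all 3686 measured genes were higher and 14.4% lower, and the median log2 ratio was -0.54 against 0.11 for all genes. The ribosomal protein share was 25.1% in the class and 36.7% in the rest. With those UMIs left out of the total the ratio was 0.603 (0.545 to 0.667), with 1 gene higher and 16 lower, against 11.0% and 25% of all genes. Weighted to the depth of the class it was 0.629. The ratio was below 1 in all 4 depth bins, at 0.800 (0.541 to 1.14), 0.590, 0.639 and 0.614.

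The 11 lower genes were chaperones, snoRNP genes, growth genes, Mybbp1a and the large subunit factor Ppan. Npm1 was at 599 against 1018 CPM (0.588, 0.464 to 0.737) and Ncl at 341 against 522 CPM (0.653, 0.474 to 0.881). Mybbp1a was lowest at 0.284 (0.0340 to 1.05), on 2 UMIs from 1 cell, followed by Srm at 0.351 (0.0716 to 1.05) and Pa2g4 at 0.404 (0.173 to 0.806). C1qbp was at 0.573, Nop10 at 0.490, Nhp2 at 0.555, Fbl at 0.537, Nop56 at 0.626 and Ppan at 0.517. Ran and Ranbp1 were not called, at 1.07 (0.800 to 1.41) and 1.13 (0.572 to 2.03). The 3 genes called higher were a smaller share of the list than the 21.0% of all measured genes, and their intervals all included 1. They are large subunit factors: Pes1 was at 1.84 (0.811 to 3.69), Ebna1bp2 at 1.68 (0.893 to 2.92) and Bop1, the partner of Pes1, at 1.63 (0.719 to 3.23). They had 9, 14 and 9 UMIs, and Noc2l, of the same role, was at 1.09. With ribosomal protein UMIs left out Pes1 alone was higher. Tsr1, Nop16, Rrs1 and Gnl3 were also too sparse to be measured in this class.

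Of the 103 cells, 39 (37.9%) had other-lineage markers, against 12.9% of the rest. Myeloid markers summed to 6710 against 618 CPM, with 7 of 7 measured markers higher and Lyz2 269-fold higher (140 against 8 UMIs). B cell markers summed to 2767 against 1354 CPM, but were mixed, with 4 of 8 measured markers higher and 3 lower. Without those cells the ratio of the ribosome biogenesis genes was 0.782 (0.688 to 0.886) over 64 cells, in which myeloid markers were at 1.42 and B cell markers at 1.02 of the rest, with 0 of 17 measured genes higher and 7 lower, against 20.2% and 14.8% of all genes. The 3 genes called higher over all cells fell under the limit of 5 expected UMIs there and were no longer measured, while their ratios were 2.93 (1.28 to 5.88) for Bop1, 2.62 (1.01 to 5.73) for Pes1 and 1.92 (0.856 to 3.79) for Ebna1bp2, on 9, 7 and 9 UMIs. With ribosomal protein UMIs left out as well it was 0.669 (0.588 to 0.757), with 11 of 17 lower, against 24.4% of all genes. As a check of the label, 11 of 12 measured S100 effector genes were higher, among them Lgals1 at 6.05 and S100a10 at 3.27. Foxp3 was at 0.722 (0.502 to 1.01) in all cells and 0.881 without the other-lineage cells. The 8 Treg markers, Foxp3 among them, summed to a ratio of 1.09 (0.980 to 1.20), with 2 higher and 2 lower. Without the other-lineage cells their sum was at 1.32, with 3 higher and 2 lower.

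Related lists were mixed in the S100a4/S100a6 cells. Of the other large subunit genes 2 of 23 were higher and 5 lower, of the small subunit genes 1 of 16 higher and 4 lower, and of the RNA polymerase I genes 0 of 10 higher and 3 lower, where 21.0% of all genes were higher and 14.4% lower. Of the polyamine, nucleotide and chaperone genes 2 of 22 were higher and 8 lower. On the total without ribosomal protein UMIs, 10 of 23 large subunit, 7 of 16 small subunit, 5 of 10 RNA polymerase I and 10 of 22 polyamine, nucleotide and chaperone genes were lower, against 25% of all genes. Without the other-lineage cells the genes lower were 3 of 13, 0 of 5, 3 of 7 and 5 of 20 in the same order, against 14.8% of all genes. The 2 higher genes were Odc1 at 1.92 (1.16 to 3.03) and Azin1, which protects the Odc1 protein from degradation, at 2.44 (1.40 to 4.04), while Amd1, a later enzyme of polyamine synthesis, was lowest at 0.342 (0.125 to 0.755). Without the other-lineage cells Odc1 was at 2.89 and Azin1, then too sparse to be measured, at 3.04. In the Myc network 0 of 5 genes were higher and 2 lower, with Myc at 0.330 (0.0890 to 0.859) on 4 UMIs in the class and 186 in the rest.

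**Figure D3:**
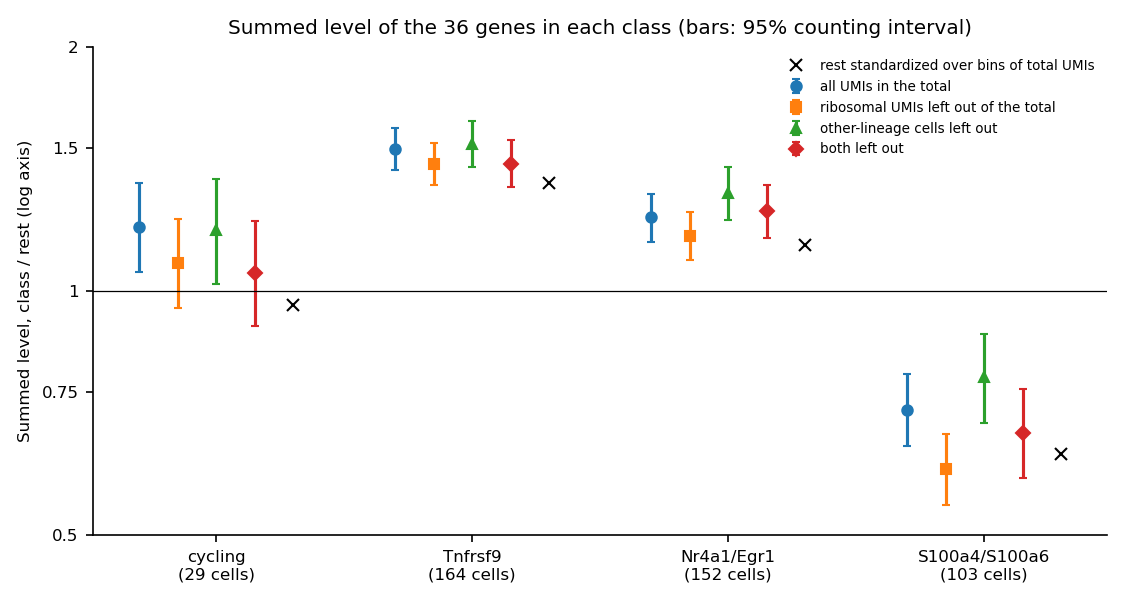
Ratio of the summed level of the 36 genes, class over rest, on a log axis for the 4 classes, with exact 95% counting intervals as bars; the depth-weighted value, a cross, has no interval. Tnfrsf9 cells lie between 1.36 and 1.52 and S100a4/S100a6 cells between 0.603 and 0.782 on every scale shown, while cycling cells run from 0.962 to 1.20.

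The difference in the 29 cycling cells changed direction with the depth of the cells compared. They had a median of 1546 UMIs against 971, and 5012 CPM (4417 to 5666) of these genes against 4175 CPM, a ratio of 1.20 (1.06 to 1.36). Weighted to the depth of the class the ratio was 0.962, and with ribosomal protein UMIs left out it was 1.08 (0.952 to 1.23). Only 12 genes were measured, of which 2 were higher and 1 lower, where 17.1% of all 1426 measured genes were higher and 15.7% lower. The 5 cells with most of these transcripts held 44.1% of the class total. Without other-lineage cells and ribosomal protein UMIs the ratio was 1.05 (0.905 to 1.22), and 1 of 7 measured genes was higher, against 10.2% of all genes. In the 12 cells that were cycling and in no other class the ratio to cells of no class was 1.70 (1.41 to 2.03), on the full total and not weighted for depth. All 6 measured genes of the cell division list were higher, among them Hmgb2 at 5.08, which checks the label.

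Ran, which also drives spindle assembly in mitosis, was the higher gene with most counts in cycling cells, at 803 against 381 CPM (2.11, 1.5 to 2.88) on 41 UMIs from 15 cells. Without the other-lineage cells it was at 1.73, on 24 UMIs, and weighted to the depth of the class at 1.49. The other higher gene was Noc2l at 1.68 (0.794 to 3.13), and Ddx21, Fbl and Ncl had the next largest ratios at 1.47, 1.44 and 1.15. Nip7, a large subunit factor, was lowest at 0.380 (0.0457 to 1.39) on 2 UMIs, followed by Npm3 at 0.742 (0.296 to 1.54) and C1qbp at 0.909 (0.331 to 2.0). Over the 4 contrasts, which share most of their comparison cells, Ran stood at 2.11 in cycling cells, 1.82 in Tnfrsf9 cells, 1.70 in Nr4a1 or Egr1 cells and 1.07 in S100a4/S100a6 cells.

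Cells that belonged to a single class, or to none, gave levels free of the overlap between classes. The summed level was 6707 CPM (5569 to 8008) in cells that were only cycling, 6242 CPM (5847 to 6657) with only Tnfrsf9, 5172 CPM (4783 to 5584) with only Nr4a1 or Egr1, 3946 CPM (3852 to 4042) in cells of no class and 3259 CPM (2886 to 3668) with only S100a4 and S100a6. The first 2 do not differ beyond counting error, with a ratio of 1.07 (0.882 to 1.30). Tnfrsf9 cells were above Nr4a1 or Egr1 cells by 1.21 (1.09 to 1.34) and above S100a4/S100a6 cells by 1.92 (1.67 to 2.20), and Nr4a1 or Egr1 cells above the last by 1.59 (1.38 to 1.83). With ribosomal protein UMIs left out of the total, the ratios were 1.06, 1.22, 2.19 and 1.80 in the same order. None was weighted for depth. Where classes met, the 27 cells with both Tnfrsf9 and Nr4a1 or Egr1 were at 6079 CPM (5322 to 6914) and the 13 cells with Nr4a1 or Egr1 and S100a4/S100a6 at 1930 CPM (1373 to 2639). The 12 cells with Tnfrsf9 and S100a4/S100a6 were at 3686 CPM (2909 to 4607). Cycling cells were at 2835 CPM (2117 to 3718) in the 9 with S100a4/S100a6, 4869 CPM (3810 to 6132) in the 7 with Tnfrsf9 and 4663 CPM (3438 to 6183) in the 5 with Nr4a1 or Egr1.

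The classes were also compared as drawn before, with every cell then thinned to 500 UMIs. In Tnfrsf9 cells the mean was 2.74 UMIs of the list against 1.88 in the rest, and 17.1% of cells had 5 or more against 5.87% (50% and 33.0% before thinning). Cells with none made up 15.9% and 18.4%. In Nr4a1 or Egr1 cells the mean was 2.26 against 1.93 and the share with 5 or more 9.87% against 6.52% (40.1% and 33.9% before thinning). In S100a4/S100a6 cells the mean was 1.34 against 1.98, 30.1% of cells had none against 17.6%, 36.9% had 1 against 28.1%, 13.6% had 2 against 23.7%, and 3.88% had 5 or more against 6.92%. The 29 cycling cells had a mean of 2.45 against 1.95. Of them 20.7% had none against 18.2% of the rest, 4 cells (13.8%) had 1 UMI against 28.7%, and 13.8% had 5 or more against 6.66%.

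**Figure D4:**
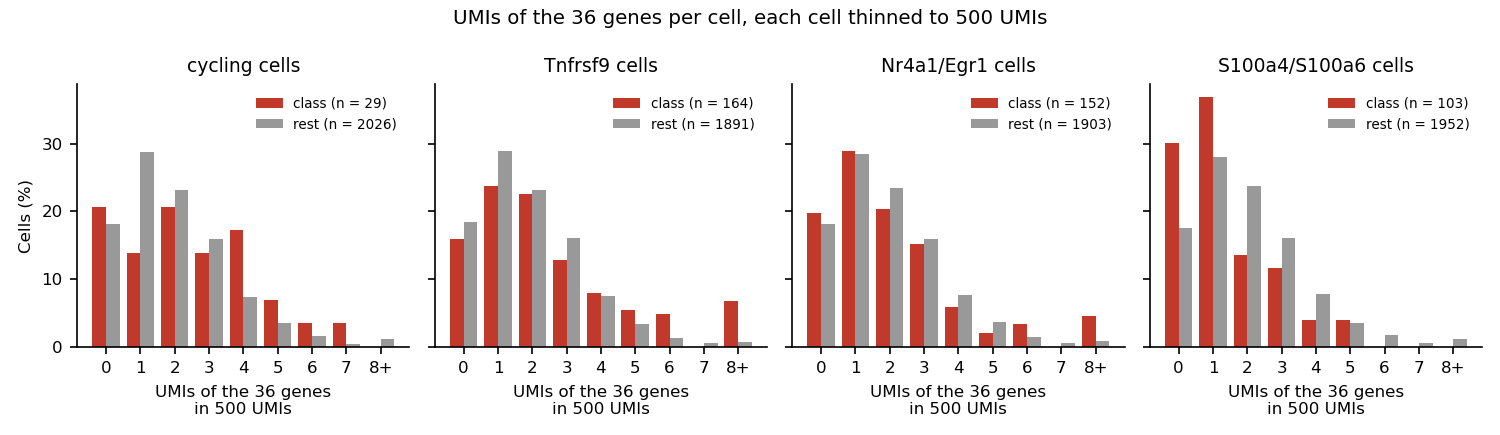
Share of cells (%) by the number of UMIs of the 36 genes after every cell was thinned to 500 UMIs, with 8 or more in 1 bar, for each class (red) and the rest (grey). S100a4/S100a6 cells have larger shares at 0 UMIs (30.1% against 17.6%) and 1 UMI (36.9% against 28.1%), and Tnfrsf9 cells a larger share at 5 or more (17.1% against 5.87%).

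The genes tended to vary together from cell to cell, weakly in each pair. Correlations were taken over the 2055 cells on Pearson residuals, which correct each count for the depth of its cell, for the 29 genes with at least 50 UMIs. The median of 406 pairs was 0.05, and 91.9% of pairs were positive. All pairs of the 5318 genes with as many UMIs had a median of -0.001, and 48.1% were positive. The cells share 1 library and the values are sparse, so these are descriptions. The highest pairs were Npm1 with Ncl at 0.188, Ncl with Ran at 0.185, Pa2g4 with Srm at 0.182 and Ran with Pa2g4 at 0.180. Without the 2% of cells with most UMIs the median was 0.03 and 85.5% of pairs were positive.

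Some genes marked cells rich in the whole list. In the 113 cells with a UMI of Srm the other members were at 8805 CPM, against 3782 CPM in cells without, a ratio of 2.33 (2.19 to 2.47), at a median depth of 1113 against 966 UMIs. Nop16 gave 2.19 (2.04 to 2.35) over 68 cells, and Mybbp1a 1.92 over 101 cells. These ratios are not corrected for depth, and a gene unlike the list can also exceed 1. Outside the list, Tnfrsf1b and Batf gave 1.22 (1.15 to 1.30) and 1.07 (0.993 to 1.16), at correlations with the list of 0.003 and -0.0005. By correlation with the summed residuals of the others, Ncl was highest at 0.344, followed by Srm at 0.330 and Pa2g4 at 0.274. Ebna1bp2 was lowest at 0.04, with a ratio of 1.26 (1.17 to 1.35), and Bop1, Pes1 and Nip7 were next at 0.060, 0.060 and 0.065. These include the 3 genes that were called higher in S100a4/S100a6 cells, where their intervals over all cells included 1.

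**Figure D5:**
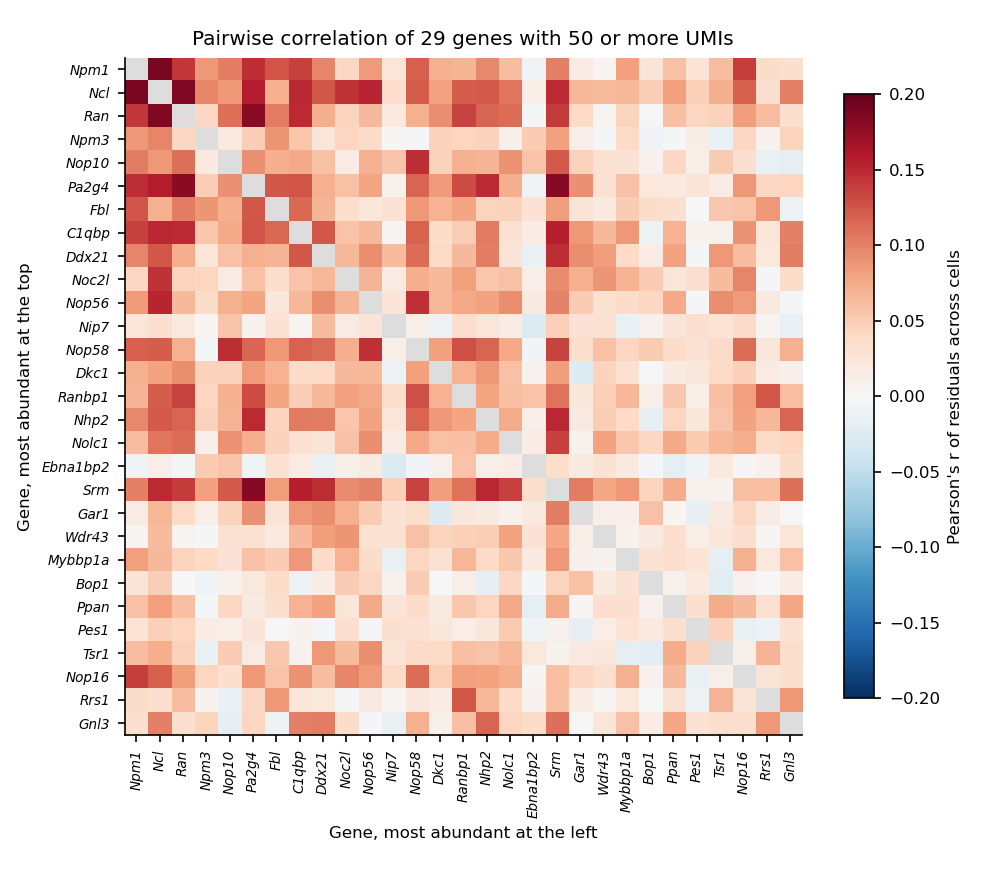
Pearson correlation of depth-corrected counts across 2055 cells for each pair of the 29 genes with 50 or more UMIs, ordered by abundance, red for positive and blue for negative, with the diagonal in grey. Most pairs are pale red (median 0.05), the strongest lie among Npm1, Ncl, Ran, Pa2g4, C1qbp and Srm, and the rows of Nip7 and Ebna1bp2 stay near 0.

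Genes outside the list were ranked by the correlation of their residuals with the summed residuals of the 36 genes. Of 3025 genes with at least 100 UMIs, ribosomal protein genes left out, the median was -0.003. The 10 most alike were Eif5a, a translation factor modified with spermidine, at 0.376, Mif at 0.296, the nucleoside diphosphate kinase Nme1 at 0.292, the chaperone Hsp90aa1 at 0.290, Ptma at 0.271, Serbp1 at 0.269, the mitochondrial chaperone Hspa9 at 0.267, the mitochondrial ribosomal protein Mrpl12 at 0.262, the translation initiation helicase Eif4a1 at 0.259 and the mitochondrial co-chaperonin Hspe1 at 0.253. Hsp90aa1 was also on the list of stress genes after dissociation. Myc had rank 315 at 0.06. The 5 least alike were Tmsb4x at -0.181, Shisa5 at -0.173, Fau, whose product includes a ribosomal protein, at -0.159, Cox7a2l at -0.126 and Btg1, an antiproliferative gene, at -0.124.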

How the data were processed

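The authors deposited a table of UMI counts per gene and cell, with no normalization, per the file headers and values. Per the submitters' processing notes TopHat2 and SAMtools were used with build mm10; versions and strand handling are not given in the sources used here. Summed counts per cell were a median of 1.49% below the UMI totals in the labels. Cells with under 500 UMIs (184) were set aside, doublets were not called, and CPM was computed from pooled counts. Ratios carry exact conditional 95% intervals. They cover counting error only, since all cells share 1 library and nothing tells mice apart. A class with 0 UMIs of a gene was given the 3 UMIs that a count of 0 allows. Correlations used analytic Pearson residuals (overdispersion 100). The ratio step was tested on simulated data. Python 3.11.15, numpy 2.4.6, scipy 1.17.1 and pandas 2.3.3 were used.

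The members and the other gene lists were chosen with earlier results of these data known, so none of the patterns is independent support for the choice. Genes named are the 10 most abundant, the 5 highest and 3 lowest measured members in each class, the highest and lowest of other lists, Myc and its partners, and the 10 most and 5 least alike genes; a few further members are named to complete a role. Values without other-lineage cells and ribosomal UMIs together, with T cell marker cells only, for single genes and other lists without other-lineage cells, and for co-variation without the deepest cells were chosen after seeing the data. Promoter windows and coordinates are RefSeq's.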

Additional observations from a re-analysis of the deposited data

Results flagged for a closer look

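The 184 cells with under 500 UMIs, which no comparison used, also held these transcripts: 272 of 70683 UMIs, or 3848 CPM (exact 95% Poisson interval 3404 to 4334), where a count of 0 would allow up to 42.4 CPM. This is a signal in data outside the main measurement and lies near the 3629 CPM of kept cells with 500 to under 750 UMIs.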

How the results depend on the processing

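Summed differences here are log2 ratios. For these alternatives, shares over all genes were taken only where ribosomal UMIs, other-lineage cells or both were left out. The other counts of genes have no such share beside them and cannot be set against genes at large. Requiring 1 UMI more for a class gave -0.19 for cycling cells (6 cells, direction changed), 0.75 for Tnfrsf9 and 0.082 for Nr4a1/Egr1 cells, with 1, 10 and 3 genes higher, and 1 higher in S100a4/S100a6 cells. Weighting the rest to the class depth gave -0.056 for cycling cells (direction changed, 1 gene higher), 0.44 for Tnfrsf9, 0.19 for Nr4a1/Egr1 and -0.67 for S100a4/S100a6 cells. Thinning to 500 UMIs before the classes were drawn left 0 genes higher in cycling, 5 in Tnfrsf9, 1 in Nr4a1/Egr1 (summed -0.043, direction changed) and 0 higher with 3 lower in S100a4/S100a6 cells, where fewer genes were measured. Leaving out the 2% of cells with most UMIs gave 1 gene higher in cycling cells, a sum of 0.45 for Tnfrsf9, a sum of 0.056 with 2 higher for Nr4a1/Egr1, and 1 higher with 7 lower in S100a4/S100a6 cells. A minimum of 1000 UMIs per cell left 1 gene higher in cycling and 1 in S100a4/S100a6 cells.

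Cells of this class only against cells of no class gave 0.77 for cycling and -0.28 with 4 lower for S100a4/S100a6 cells. In cycling cells the mean of CPM per cell and a lower fold threshold each gave 4 genes higher, and no minimum of expected UMIs gave 10. In S100a4/S100a6 cells a total without ribosomal protein genes gave -0.73 with 1 higher, at least 100 UMIs per gene gave 1 higher, and cells with a T cell marker UMI only gave 1 higher. Leaving out cells with other-lineage markers gave 0.40 for Nr4a1/Egr1 and 0 higher with 7 lower for S100a4/S100a6 cells, where Bop1, Pes1 and Ebna1bp2 had too few expected UMIs to be measured and stood at 2.93, 2.62 and 1.92; with ribosomal UMIs left out too, cycling cells were at 0.075 with 1 higher, and S100a4/S100a6 cells had 0 higher. The causes were not tested. Across these alternatives the sum stayed between 0.44 and 0.75 in Tnfrsf9 cells and between -0.73 and -0.28 in S100a4/S100a6 cells. The median pair correlation was 0.090 in cells of at least 1000 UMIs, 0.073 for genes with at least 200 UMIs and 0.031 without the deepest cells.

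Depth limits the sparse genes most: 7 of the 36 were measured in no class, and only 12 in cycling cells. No replicate could be left out, since there is 1 library. No paired analysis was possible because no result comes from a test between samples.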
